A study of Chlorella sp. HS2 with 12 samples.

Results

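TRINITY_DN769_c0_g1 is 1 of the 57640 assembled genes of the green alga Chlorella sp. HS2, and its best Swiss-Prot hit is a chloroplast glucose-6-phosphate 1-dehydrogenase. It was picked by its identifier, with its levels in these libraries already known, so its levels and fold changes are given as a description with no test. It is among the 31491 genes that passed the filter on low counts. Its transcript was most abundant in salt-grown cells in exponential phase, at 1509 ± 19.3 CPM (SD, n = 3), and least abundant in freshwater cells of the same phase, at 195 ± 15.9 CPM. CPM are estimated counts brought to a common library total, here after scaling with TMM factors, which correct for library composition.

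Glucose-6-phosphate 1-dehydrogenase (G6PDH) carries out the entry step of the oxidative pentose phosphate path. It oxidises glucose 6-phosphate and reduces NADP to NADPH, and the path makes more NADPH and ribulose 5-phosphate in later steps. Plants and green algae have plastid and cytosolic forms of the enzyme. The plastid form is known to supply NADPH where light does not, for nitrite reduction and for antioxidant systems among other uses, and is switched off by thioredoxin in the light.

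The alga was grown autotrophically in photobioreactors with 5% CO2, either in marine medium with 3% (w/v) sea salt or in freshwater medium without it. Cells were harvested on day 6, in stationary phase, or on day 4, in exponential phase, which gives 4 groups: marine stationary, marine exponential, freshwater stationary and freshwater exponential. Each group had 3 libraries of poly(A)-selected RNA from the same strain. In each medium the phase is also the age of the culture, and the label of a medium covers everything the sea salt brings.

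The 12 libraries held 9378066 to 11280635 estimated counts. TMM factors ran from 0.738 to 0.773 in freshwater exponential libraries and from 0.863 to 1.40 in the others. Summed levels of 38 genes with green algal marker names (antenna proteins, photosystem I subunits, Rubisco small chain, oxygen-evolving enhancer) were 5554 to 7185 CPM in marine stationary, 3883 to 4347 CPM in marine exponential, 4300 to 6953 CPM in freshwater stationary and 130290 to 149080 CPM in freshwater exponential libraries. Bacterial markers, 22 genes of which 7 to 17 were at 0 in a group, summed to at most 74.8 CPM in any library, and 9 animal markers to at most 11.32 CPM. The 2 genes with a fungal chitin synthase hit summed to 502 to 537 CPM in marine exponential libraries and to at most 327 CPM elsewhere. The part of these differences in the results was not tested. Library codes begin alike for all 3 marine exponential libraries, and likewise for replicates 1 and 2 of marine stationary, and nothing in the labels says whether these came from separate cultures. Marine stationary replicate 3 differed from the others of its group by a median of 0.446 to 0.448 on the log2 scale over genes, against 0.0821 between those. Marine exponential libraries differed from each other by 0.0992 to 0.119. The same medians were 0.217 to 0.276 in freshwater stationary and 0.271 to 0.364 in freshwater exponential libraries. The SDs and p-values given here then measure a spread that may be technical in part.

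The assembled sequence of TRINITY_DN769_c0_g1 is 3994 bases long and has 2 isoforms. In isoform 1 a reading frame of 2382 bases is 66.3% identical to the spinach chloroplast enzyme over the aligned part. In isoform 2 the frame has 1890 bases and is 68.1% identical to a chloroplast form of Arabidopsis. The same sequence holds a frame of 309 bases on the opposite strand with a CHCH domain, a domain of small mitochondrial proteins. The libraries kept no strand information, so reads of this frame and of the G6PDH frame cannot be told apart in the count of the gene.

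In marine stationary libraries TRINITY_DN769_c0_g1 stood at 309, 310 and 440 CPM, from 4502, 4623 and 5148 estimated counts. In marine exponential libraries it stood at 1493, 1530 and 1503 CPM, from 18831, 18900 and 17799 counts. Freshwater stationary libraries had 325, 493 and 340 CPM, and freshwater exponential libraries had 177, 198 and 208 CPM. All 3 marine exponential libraries lay far above the other 9, all 3 freshwater exponential libraries lay below the other 9, and the stationary groups of both media overlapped between those. In bulk RNA, fewer cells that express a gene and less RNA of it per cell cannot be told apart.

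The mean level was 353 ± 75.3 CPM in marine stationary, 1509 ± 19.3 CPM in marine exponential, 386 ± 92.7 CPM in freshwater stationary and 195 ± 15.9 CPM in freshwater exponential libraries (SD, n = 3 each). In that order of groups these are 88.3, 378, 96.6 and 48.7 CPM per kb of assembled sequence. Ranked by CPM per kb among the 31491 tested genes, it stood at place 735 in marine stationary, 135 in marine exponential, 1059 in freshwater stationary and 1908 in freshwater exponential cells. The order of the groups was therefore marine exponential, the neighbouring pair of freshwater and marine stationary, whose means differed by less than the SD of either, and freshwater exponential.

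**Figure D1:**
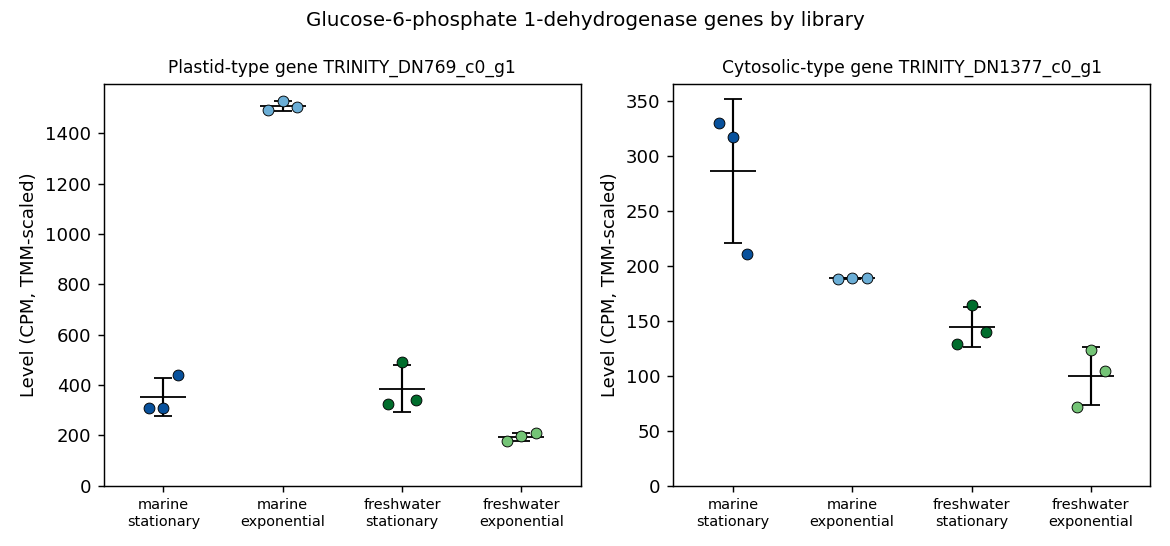
Level in CPM of the plastid-type (left) and cytosolic-type (right) G6PDH gene in each library of the 4 groups, with points for libraries and lines for the mean ± SD of n = 3. The plastid-type gene sits at 1493 to 1530 CPM in marine exponential libraries and at most 493 CPM elsewhere, while the cytosolic-type gene is highest in marine stationary libraries, at 211 to 330 CPM. The vertical scales of the panels differ.

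The salt comparison in exponential phase asked how growth in marine medium changed expression on day 4. The level of TRINITY_DN769_c0_g1 was 7.75-fold higher in marine than in freshwater exponential cells, a log2 fold change of 2.95 ± 0.20 (SE). Of the 31491 tested genes 9.3% were called higher in this comparison and 10.8% lower by edgeR's quasi-likelihood test at a false discovery rate (FDR) under 0.05. In stationary phase the log2 fold change of marine over freshwater was -0.13 ± 0.18, and the libraries of both media overlapped. This sign turned with the scaling: scaled by total counts alone the value was 0.44, and without freshwater stationary replicate 2, the highest library of its group, it was 0.14. In this phase 9.02% of tested genes were called higher and 17.3% lower.

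Across growth phases the gene moved in opposite directions in the 2 media. In freshwater its level was 1.98-fold higher in stationary than in exponential cells, a log2 fold change of 0.99 ± 0.19, which was 0.55 without freshwater stationary replicate 2. In marine medium it was 4.28-fold lower in stationary than in exponential cells, a log2 fold change of -2.10 ± 0.19. The salt effect in stationary phase minus that in exponential phase was -3.08 ± 0.27 on the log2 scale. The shares of tested genes called higher and lower were 6.46% and 4.42% in the freshwater phase comparison, 0.311% and 1.32% in the marine one, and 2.38% and 4.79% for the difference between the salt effects. Levels of the kind seen here, with every marine exponential library above the other 9 and every freshwater exponential library below them, were found in 234 of the 31491 tested genes (0.743%).

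The authors' deposited table of comparisons, whose values are normalised in a way not given in the sources used here, gives the gene mean signals of 3095 in marine stationary, 14776 in marine exponential, 4482 in freshwater stationary and 2055 in freshwater exponential cells. The log2 fold changes in the authors' deposited table are 2.85 in exponential and -0.53 in stationary phase, with a difference of -3.38. Over all tested genes the table's values lay a median of -0.11, -0.40 and -0.30 from those fitted here in the same 3 comparisons. For TRINITY_DN769_c0_g1 the distances were also -0.11, -0.40 and -0.30, so that relative to the median shift the stationary value of the authors' deposited table is -0.13. Scaling by total counts in place of TMM shifts log2 fold changes, by the mean over libraries of the change in scale, by 0.64 in the exponential and 0.58 in the stationary salt comparison, and by 0.16 and 0.11 in the freshwater and marine phase comparisons. The shift of a single gene can differ from these, since the factors differ within marine stationary libraries.

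**Figure D2:**
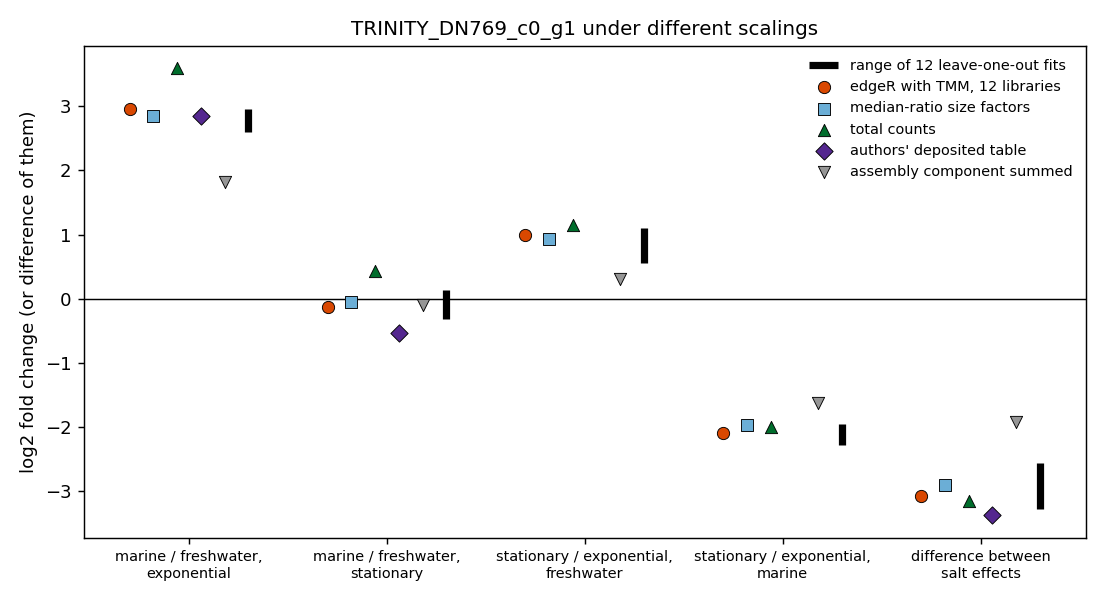
Log2 fold changes of TRINITY_DN769_c0_g1 in the 4 pairwise comparisons and the difference between its salt effects, under 3 scalings, in the authors' deposited table (3 comparisons only), and with its assembly component summed. Black bars span the 12 fits that each leave out 1 library. Values in the stationary salt comparison lie on both sides of 0, from -0.53 to 0.44, while each of the other 4 keeps its sign.

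The assembly component of the gene, the set of assembled genes that share its identifier up to the gene suffix, holds 3 genes with different products. TRINITY_DN769_c0_g2 has a TATA-box-binding protein hit, a basal transcription factor, and TRINITY_DN769_c0_g3 a hit to a peptidyl-prolyl isomerase, a protein-folding enzyme. TRINITY_DN769_c0_g2 averaged 84.5 ± 9.70, 111 ± 2.35, 98.4 ± 5.91 and 92.9 ± 9.43 CPM in marine stationary, marine exponential, freshwater stationary and freshwater exponential libraries. TRINITY_DN769_c0_g3 averaged 108 ± 7.80, 155 ± 6.16, 140 ± 19.0 and 136 ± 17.1 CPM in the same order. Neither was called in any of the 5 comparisons here, with edgeR FDR values of 0.0549 or more, and DESeq2 called TRINITY_DN769_c0_g3 in the marine phase comparison (0.0437); their log2 fold changes by edgeR ran from -0.56 to 0.26. In the authors' deposited table both have an adjusted p for the stationary salt comparison of 0.00013 and 4.21e-06, at log2 fold changes of -0.62 and -0.78 before the median shift given above. For the difference between salt effects the authors' deposited table gives them adjusted p-values of 0.00196 and 0.00094.

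Summed over the component, levels were 500, 505 and 630 CPM in marine stationary libraries, 1757, 1795 and 1774 CPM in marine exponential, 578, 721 and 573 CPM in freshwater stationary and 414, 428 and 429 CPM in freshwater exponential libraries. The sums keep marine exponential libraries above and freshwater exponential libraries below all others. TRINITY_DN769_c0_g1 made up 64.3% ± 4.81 of the sum in marine stationary, 85.0% ± 0.268 in marine exponential, 61.3% ± 6.27 in freshwater stationary and 45.9% ± 2.89 in freshwater exponential libraries. In a fit on components in place of genes the log2 fold changes were 1.82 for salt in exponential phase, 0.30 for stationary over exponential in freshwater, -1.62 for the same in marine medium and -1.92 for the difference between salt effects. Each is closer to 0 than the value of the gene, and each has its sign.

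**Figure D3:**
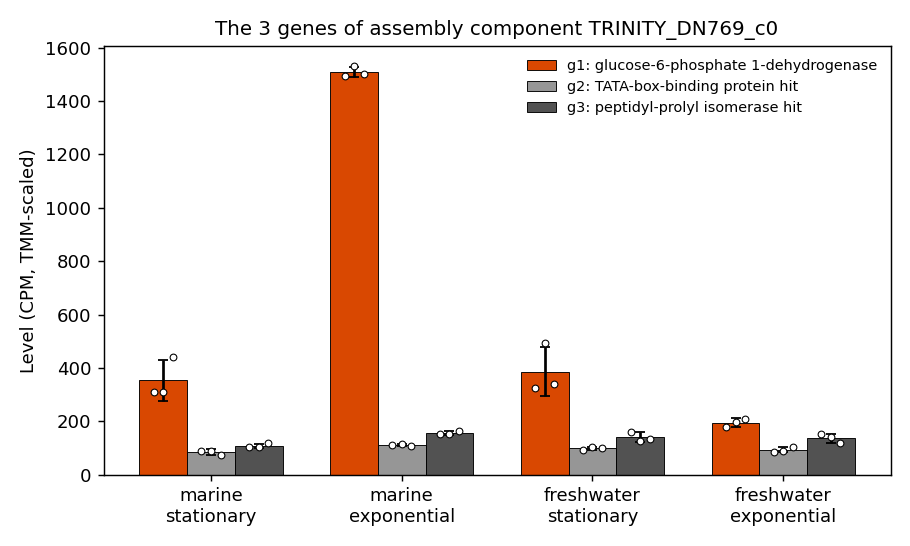
Mean level in CPM of the 3 genes of the assembly component in each group, with bars for means, whiskers for SD and points for the 3 libraries. The G6PDH gene ranges from 195 to 1509 CPM between groups, and the means of the other two stay between 84.5 and 155 CPM.

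The only other gene with a G6PDH product name, TRINITY_DN1377_c0_g1, is 3839 bases long and hits a cytoplasmic form of Arabidopsis. It stood at 330, 317 and 211 CPM in marine stationary libraries, 188, 189 and 189 CPM in marine exponential, 129, 164 and 140 CPM in freshwater stationary and 71.4, 123 and 104 CPM in freshwater exponential libraries. Every marine library was above every freshwater library of the same phase, and marine stationary replicate 3 was well below the other libraries of its group. The gene was called higher in marine medium in exponential phase (1.89-fold, log2 fold change 0.92 ± 0.22, edgeR FDR 0.0129) and in stationary phase (1.98-fold, 0.99 ± 0.22, edgeR FDR 0.00888). The exponential call was lost without any 1 of 8 libraries, all but freshwater stationary replicate 1 and those of marine stationary (FDR up to 0.23), and the stationary one without freshwater stationary replicate 1 or marine stationary replicate 1 (FDR up to 0.0542). The authors' deposited table gives this gene an adjusted p of 0.00605 in exponential and of 0.0579 in stationary phase. Stationary over exponential, its log2 fold change was 0.60 ± 0.21 in marine medium (FDR 0.25) and 0.53 ± 0.21 in freshwater (FDR 0.146), neither called by edgeR. DESeq2 called the marine one (adjusted p 0.0296). The difference between the salt effects of this gene was 0.07 ± 0.30. With its assembly component summed, the salt value was 0.65 in exponential phase (edgeR FDR 0.0863, not called) and 1.13 in stationary phase (edgeR FDR 0.00858).

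The balance of both G6PDH genes shifted between the groups. Per kb of assembled sequence the plastid-type gene stood to the cytosolic-type gene at a ratio of 0.898, 0.938 and 2.00 in marine stationary libraries, 7.62, 7.78 and 7.65 in marine exponential, 2.42, 2.89 and 2.34 in freshwater stationary and 2.39, 1.55 and 1.92 in freshwater exponential libraries. The ratio was highest in marine exponential cells and was under 1 in 2 of the marine stationary libraries. Their summed level was 639 ± 11.7 CPM in marine stationary, 1697 ± 19.7 CPM in marine exponential, 530 ± 110.3 CPM in freshwater stationary and 294 ± 39.8 CPM in freshwater exponential libraries. The ratio does not depend on library scaling, and it was described with no test because the levels of the plastid-type gene were known when it was picked.

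The other enzymes of the path were looked up by product name, which gave 22 genes with the G6PDH genes, 13 of them with a hit in plants or green algae. Of the 21 without TRINITY_DN769_c0_g1, 10 passed the filter on low counts and 11 did not. The shortest of the 22 has 220 bases, and 12 of the 22 had no count in any marine library. For the 10 tested genes, 1 was called higher and 3 lower in marine exponential cells (9.3% and 10.8% of all tested genes, 20.1% in either direction), and 6 higher and 2 lower in marine stationary cells (9.02% and 17.3%, together 26.3%). Stationary over exponential, 1 was higher and 2 lower in freshwater (6.46% and 4.42%, together 10.9%), and none was called in marine medium by edgeR (0.311% and 1.32%, together 1.63%), where 2 had an unadjusted p under 0.05 and DESeq2 called 1. For the difference between salt effects 2 were higher and 1 lower (2.38% and 4.79%, together 7.17%). The 8 stationary salt calls were 4 without freshwater stationary replicate 1, 2 without marine stationary replicate 1 and 3 without marine stationary replicate 2. The 4 exponential ones were 2 without freshwater exponential replicate 2 or any 1 of the marine exponential libraries. Their median log2 fold changes were -0.43 and 0.65 for salt in exponential and stationary phase, against 0.00 and 0.23 over all tested genes, and -0.63 and 0.02 for phase in freshwater and in marine medium, against 0.27 and 0.01. Where a group had no count, taking the bound that 3 counts over the group allow, the last of these was 0.03 and the others kept their value.

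After G6PDH, 6-phosphogluconolactonase (TRINITY_DN1746_c1_g1) opens the lactone ring of the product. It stood at 155, 156 and 200.2 CPM in marine stationary libraries, 216, 225 and 202 CPM in marine exponential, 425, 421 and 414 CPM in freshwater stationary and 259, 234 and 224 CPM in freshwater exponential libraries. Freshwater stationary cells had the most, without overlap with any other group, and the salt groups of the exponential phase overlapped. It was lower in marine stationary than in freshwater stationary cells (log2 fold change -1.30 ± 0.12, edgeR FDR 3.77e-05) and higher in stationary than in exponential freshwater cells (0.81 ± 0.12, FDR 0.00117). In exponential phase the salt comparison gave -0.16 ± 0.12 (FDR 0.317), and it was called without freshwater exponential replicate 1 or 3 or freshwater stationary replicate 2 or 3.

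6-Phosphogluconate dehydrogenase makes further NADPH and releases CO2. By product name it was found only in TRINITY_DN17660_c0_g1, a piece of 572 bases at 10.6 to 12.0 CPM in marine stationary, 4.18 to 6.05 CPM in marine exponential, 0 to 0.642 CPM in freshwater stationary and 0.723 to 1.58 CPM in freshwater exponential libraries. It was called higher in marine stationary cells (log2 fold change 5.66 ± 1.35, edgeR FDR 0.0138), a call lost without marine stationary replicate 1 or 2 (FDR up to 0.0632). Without 1 library at a time its log2 fold change ran from 5.11 to 9.94, and its summed component was not called (2.66, FDR 0.181). The deposited annotation report gives this piece no such top hit. It places hits to plant 6-phosphogluconate dehydrogenases in all 47 isoforms of another gene, TRINITY_DN262_c0_g1. The product name of TRINITY_DN262_c0_g1 is that of an RNA exonuclease, 5'-3' exoribonuclease 1. Its sequence of 15469 bases has hits to both proteins, so its count can hold reads of both.

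TRINITY_DN262_c0_g1 stood at 168, 166 and 272 CPM in marine stationary libraries, 333, 337 and 320 CPM in marine exponential, 65.2, 76.2 and 61.7 CPM in freshwater stationary and 53.6, 65.3 and 71.9 CPM in freshwater exponential libraries. All marine libraries were above all freshwater libraries, and the freshwater groups overlapped. It was called higher in marine medium in exponential phase (5.19-fold, log2 fold change 2.38 ± 0.20, edgeR FDR 2.07e-05) and in stationary phase (2.98-fold, 1.57 ± 0.20, edgeR FDR 0.000308). Its assembly component of 6 genes, the others named as unrelated proteins, went the other way when summed, with log2 fold changes of -0.60 and -1.02. Stationary over exponential, the log2 fold change was -0.71 ± 0.19 in marine medium (edgeR FDR 0.13, called without marine stationary replicate 3) and 0.09 ± 0.19 in freshwater (FDR 0.92).

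The non-oxidative branch turns ribulose 5-phosphate into other sugar phosphates and shares its isomerase, 3-epimerase and transketolase with the Calvin cycle. Plastid ribulose-phosphate 3-epimerase (TRINITY_DN5020_c0_g1) averaged 133 ± 13.8 CPM in marine stationary, 107 ± 4.45 CPM in marine exponential, 42.8 ± 2.50 CPM in freshwater stationary and 215 ± 52.5 CPM in freshwater exponential libraries. It was lower with salt in exponential phase (log2 fold change -1.004 ± 0.16, edgeR FDR 0.00149), higher with salt in stationary phase (1.64 ± 0.17, FDR 8.03e-05) and lower in stationary than in exponential freshwater cells (-2.33 ± 0.17, FDR 1.79e-05). In the exponential salt comparison and the freshwater phase comparison its sign was opposite to that of TRINITY_DN769_c0_g1. Transketolase (TRINITY_DN2688_c0_g1) was likewise lower with salt in exponential phase, at 102 ± 4.28 against 165 ± 31.1 CPM (-0.70 ± 0.15, edgeR FDR 0.00877), and lower in stationary freshwater cells, at 58.9 ± 7.09 against 165 ± 31.1 CPM (-1.49 ± 0.15, FDR 0.000165). In stationary phase it was called higher with salt (0.54 ± 0.15, edgeR FDR 0.0287), a call lost without any 1 of 7 libraries, namely those of marine exponential, marine stationary replicates 1 and 2 and freshwater stationary replicates 1 and 3 (FDR up to 0.13). The annotation report gives a transketolase hit in 1 of 4 isoforms of this gene. Its 9342 bases also hold a frame of another protein, and reads of both frames cannot be told apart in its count.

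Ribose-5-phosphate isomerase has the same best hit in 2 genes of an assembly component, TRINITY_DN12138_c0_g3 and TRINITY_DN12138_c0_g1, between which the counting could divide reads, so their values are uncertain. TRINITY_DN12138_c0_g1 is counted above among the genes called lower with salt in stationary phase (log2 fold change -7.55 ± 1.94, edgeR FDR 0.0187). It stood at 68.3, 1.14 and 2.09 CPM in freshwater stationary libraries, where TRINITY_DN12138_c0_g3 had 5.77, 60.9 and 102 CPM. This call was lost without freshwater stationary replicate 1 or any 1 of the marine stationary libraries (FDR up to 0.194). The more abundant gene, TRINITY_DN12138_c0_g3, averaged 20.7 ± 4.62 CPM in marine stationary, 36.5 ± 2.70 CPM in marine exponential, 56.1 ± 48.1 CPM in freshwater stationary and 205 ± 38.3 CPM in freshwater exponential libraries. It was called lower with salt in exponential phase (log2 fold change -2.49 ± 0.71, edgeR FDR 0.0308), a call lost without any 1 of 9 libraries, all but those of freshwater stationary (FDR up to 0.109), and kept for the summed component (-2.74, FDR 1.96e-05). The summed component was also lower with salt in stationary phase (-1.86, edgeR FDR 0.000241). In freshwater it was lower in stationary than in exponential cells (-1.62, edgeR FDR 0.000924). Transaldolase (TRINITY_DN822_c0_g1), whose best hit is bacterial, averaged 118 ± 28.7 CPM in marine stationary and 70.1 ± 13.0 CPM in freshwater stationary libraries and was called higher there (0.75 ± 0.19, edgeR FDR 0.0193). Stationary over exponential in freshwater it was not called by edgeR (-0.67 ± 0.19, FDR 0.0525) and was called by DESeq2 (adjusted p 0.00324). The stationary salt call was lost without freshwater stationary replicate 1 or 3 or marine stationary replicate 1 or 2 (FDR up to 0.103). The authors' deposited table gives it an adjusted p of 0.227. The annotation report gives no transaldolase as top hit of TRINITY_DN822_c0_g1. It gives such hits in 13 of 19 isoforms of TRINITY_DN1291_c0_g1, a gene with frames of other proteins too.

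The annotation report also gave hits to the same enzymes in 5 further genes with other product names, TRINITY_DN262_c0_g1 among them. A hit could be of the transcript or of a reading frame in it. These 5 genes were added as a group after the data were seen. With salt 1 was called higher and 2 lower in exponential phase (9.3% and 10.8% of all tested genes), and 3 higher and 2 lower in stationary phase (9.02% and 17.3%). Stationary over exponential, 4 were lower in freshwater (4.42%) and 1 in marine medium (1.32%). The marine call, of TRINITY_DN1291_c0_g1 with a transaldolase hit, was lost without any 1 of the marine exponential libraries or marine stationary replicate 1 or 2 (FDR up to 0.0708). In stationary phase the salt calls of TRINITY_DN1819_c1_g2 and TRINITY_DN1964_c0_g1 were lost in 11 and 10 of the 12 fits that each leave out 1 library (FDR up to 0.163 and 0.206). TRINITY_DN1819_c1_g2, whose sequence has a transaldolase hit beside a frame of a light-harvesting protein, stood at 18.4 ± 1.17 CPM in marine exponential and 578 ± 10.8 CPM in freshwater exponential libraries (log2 fold change -4.97 ± 0.16, edgeR FDR 1.45e-07). In freshwater it was lower in stationary than in exponential cells, at 16.7 ± 3.54 against 578 ± 10.8 CPM (-5.12 ± 0.16, edgeR FDR 1.14e-07). The green algal markers given above move with it, and reads of its parts cannot be told apart.

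Glucose 6-phosphate is supplied and used by other enzymes too. In this list 18 of 26 genes were tested, and 4 were called higher and 9 lower with salt in exponential phase (9.3% and 10.8% of all tested genes) and 2 higher and 7 lower with salt in stationary phase (9.02% and 17.3%). Stationary over exponential, 1 was higher and 6 lower in freshwater (6.46% and 4.42%), and 2 were lower in marine medium (1.32%). The median log2 fold changes of these comparisons were -0.95, -0.28, 0.02 and -0.17, against 0.00, 0.23, 0.27 and 0.01 over all tested genes. Cytosolic glucose-6-phosphate isomerase (TRINITY_DN2078_c0_g2), which interconverts the glucose and fructose phosphates, was higher with salt in exponential phase at 176 ± 2.08 against 72.9 ± 8.17 CPM (log2 fold change 1.27 ± 0.14, edgeR FDR 9.6e-05). In marine medium it was lower in stationary than in exponential cells, at 86.7 ± 10.4 against 176 ± 2.08 CPM (-1.02 ± 0.13, edgeR FDR 0.00569), a call lost without any 1 of the marine exponential libraries or marine stationary replicate 1 or 2 (FDR up to 0.0867). TRINITY_DN2078_c0_g1 and TRINITY_DN2078_c0_g3 of the same assembly component have such a hit too, so the counting could divide reads. With the component summed, these log2 fold changes were 0.64 for salt in exponential phase and -0.63 for phase in marine medium. Hexokinase (TRINITY_DN1100_c0_g1), which makes glucose 6-phosphate from glucose, was lower with salt in exponential phase, at 35.5 ± 2.79 against 72.2 ± 19.4 CPM (-1.02 ± 0.19, edgeR FDR 0.00332).

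Other sources of NADPH had 12 of 18 genes tested. With salt 4 were called higher and 1 lower in exponential phase (9.3% and 10.8% of all tested genes), and 7 higher and 1 lower in stationary phase (9.02% and 17.3%). The median log2 fold changes with salt were 0.52 (1.09 at the bounds described above) and 1.25, against 0.00 and 0.23 over all tested genes. Stationary over exponential, 3 were higher and 3 lower in freshwater (6.46% and 4.42%), and none was called in marine medium by edgeR or DESeq2, where 4 had an unadjusted p under 0.05. NADP-dependent malic enzyme (TRINITY_DN1988_c0_g1), which makes NADPH from malate, stood at 289 ± 29.7 CPM in marine stationary, 342 ± 4.41 CPM in marine exponential, 277 ± 82.8 CPM in freshwater stationary and 94.1 ± 23.9 CPM in freshwater exponential libraries. It was higher with salt in exponential phase (log2 fold change 1.86 ± 0.23, edgeR FDR 0.000286) and higher in stationary than in exponential freshwater cells (1.56 ± 0.23, FDR 0.00154), the same signs as TRINITY_DN769_c0_g1. In marine medium its phase comparison gave -0.24 ± 0.23 (FDR 0.97), where TRINITY_DN769_c0_g1 had -2.10. TRINITY_DN1988_c0_g2 of the same assembly component has the same best hit, so the counting could divide reads. With the component summed, the values were 1.56 for salt in exponential phase, 1.17 for phase in freshwater and -0.05 for phase in marine medium. In freshwater, chloroplast ferredoxin-NADP reductase (TRINITY_DN4410_c0_g1) was lower in stationary than in exponential cells (-1.58 ± 0.21, edgeR FDR 0.000704). Mitochondrial transhydrogenase (TRINITY_DN492_c0_g1) was lower there too (-1.02 ± 0.15, FDR 0.00134). A putative NAD kinase (TRINITY_DN2239_c0_g1) was higher there (1.10 ± 0.19, FDR 0.00358), a call lost without any 1 of 4 libraries (FDR up to 0.0713).

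Enzymes that use NADPH were listed by product name. The names of the listed glutamate synthases give no cofactor, so some may not use NADPH, and the list also holds folylpolyglutamate synthases. The counts below include TRINITY_DN165_c0_g1, a glutamate synthase called higher with salt in exponential and stationary phase (edgeR FDR 0.0012 and 0.00753). Of the 39 genes in this list 22 were tested. With salt 5 were called higher and 6 lower in exponential phase (9.3% and 10.8% of all tested genes), and 8 higher and 5 lower in stationary phase (9.02% and 17.3%). The median log2 fold changes were -0.22 (-0.30 at the bounds) and 0.51, against 0.00 and 0.23 over all tested genes. Chloroplast glutathione reductase (TRINITY_DN959_c0_g1), which keeps glutathione reduced, averaged 361 ± 41.2 CPM in marine stationary, 532 ± 5.64 CPM in marine exponential, 112 ± 12.1 CPM in freshwater stationary and 75.3 ± 10.99 CPM in freshwater exponential libraries. Its log2 fold change with salt was 2.82 ± 0.14 in exponential (edgeR FDR 7.48e-07) and 1.68 ± 0.14 in stationary phase (FDR 1.81e-05). Monodehydroascorbate reductase (TRINITY_DN1476_c0_g1), which regenerates ascorbate, was also higher with salt in both phases, by 2.27 ± 0.09 and 2.10 ± 0.09 (edgeR FDR 2.71e-07 and 8.84e-07). Stationary over exponential, 1 of the 22 was higher and 6 lower in freshwater (6.46% and 4.42%), and 1 was lower in marine medium (1.32%). The higher one was TRINITY_DN959_c0_g1, a call lost without any 1 of 9 libraries, all but those of marine stationary (FDR up to 0.349). The marine one was a thioredoxin reductase (TRINITY_DN23_c0_g2), a call lost without any 1 of 8 libraries, all but those of freshwater stationary and marine stationary replicate 3 (FDR up to 0.28). Of 7 nitrogen reduction genes 3 were tested, and 2 were called higher and none lower with salt in each phase (9.3% and 9.02% of all tested genes higher), and 1 higher in stationary freshwater cells (6.46%). None of the 3 was called across phases in marine medium by edgeR, where 1 had an unadjusted p under 0.05 and DESeq2 called 1. Nitrate reductase (TRINITY_DN580_c1_g1), the step before nitrite, had the same order of groups as TRINITY_DN769_c0_g1 at its ends, with 3015 ± 1660 CPM in marine stationary, 8491 ± 447 CPM in marine exponential, 887 ± 146 CPM in freshwater stationary and 385 ± 138 CPM in freshwater exponential libraries.

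Summing libraries whose codes begin alike leaves 1 marine exponential and 2 marine stationary samples, and the lone sample is then assumed to vary like the other groups. In this fit the salt calls of TRINITY_DN262_c0_g1, TRINITY_DN959_c0_g1, TRINITY_DN1476_c0_g1 and TRINITY_DN580_c1_g1 held in both phases (edgeR FDR at most 0.023). Those of TRINITY_DN1377_c0_g1 were lost in exponential and stationary phase (FDR 0.384 and 0.14). The exponential salt calls were also lost for TRINITY_DN5020_c0_g1 (FDR 0.397), TRINITY_DN2688_c0_g1 (0.503), TRINITY_DN12138_c0_g3 (0.503), TRINITY_DN1100_c0_g1 (0.478) and TRINITY_DN1988_c0_g1 (0.0511). The stationary salt call of TRINITY_DN1746_c1_g1 held (0.00621) and its freshwater phase call did not (0.0535). The freshwater phase call of TRINITY_DN1988_c0_g1 was lost too (0.0768).

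The 5 genes whose levels were most like those of TRINITY_DN769_c0_g1 were sought among 3078 tested genes of other components with a clear product name, by Pearson's r of log2(CPM + 1) over the 12 libraries. They were an acylamino-acid-releasing enzyme (TRINITY_DN763_c0_g2, r = 0.973), a mitochondrial GTP 3',8-cyclase of molybdenum cofactor synthesis (TRINITY_DN1382_c0_g1, r = 0.969), a uracil-DNA glycosylase of DNA repair (TRINITY_DN418_c0_g1, r = 0.959), an endoribonuclease YBEY (TRINITY_DN2067_c0_g1, r = 0.955) and a transformation/transcription domain-associated protein (TRINITY_DN368_c0_g1, r = 0.945). The libraries of a group share a condition and form clusters, so r is a measure of likeness here with no test. The cyclase averaged 166 CPM in marine stationary, 496 CPM in marine exponential, 153 CPM in freshwater stationary and 69.7 CPM in freshwater exponential libraries. The acylamino-acid-releasing enzyme averaged 70.7, 104, 76.4 and 66.2 CPM in the same groups, a smaller span with freshwater stationary above marine stationary cells.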

How the data were processed

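Members and lists were chosen with earlier results of these data known. The authors deposited expected counts per assembled gene that were not normalised. The submitters' processing notes name RSEM 1.3.2, Bowtie and DESeq2 1.20.0, with no role or order. The authors' deposited comparison table gives mean signals per group, log2 fold changes and adjusted p-values. Per the file headers, the annotation table gives names, lengths and percent similarity of the best hit. The library kit named in the labels' protocol does not mark strand.

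Expected counts were rounded. Genes passed filterByExpr, libraries were scaled by TMM, and 4 group means were fitted to 12 libraries in edgeR 4.0.16 (R 4.3.3). The quasi-likelihood F-test was Benjamini-Hochberg adjusted over 31491 genes, and called at an FDR under 0.05. DESeq2 1.42.0 was an alternative, and figures used matplotlib 3.10.9. The fit was tested on simulated data. Lists were patterns over product names for 30 products, of which 27 matched a gene. The pattern for glutamate synthase also took folylpolyglutamate synthases, that for thioredoxin reductase a ferredoxin-thioredoxin reductase and a selenoprotein, and that for phosphoglucomutase a phosphomannomutase. Lists left out the described gene.

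Named genes were the gene itself, its component, G6PDH product names, the most abundant gene of each list product with further tested pentose phosphate genes, and the 5 highest r values among genes averaging at least 3 log2 CPM whose hit had an E-value of at most 1e-20. Genes with hits found in the annotation report, the authors' values and scaling by total counts were added after the data were seen. Same-numbered libraries correlated at -0.0545 to 0.0438 around group means, so the numbers were not taken as pairs. Protein domain hits of the dehydrogenase frames are not reported here.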

Additional observations from a re-analysis of the deposited data

Results flagged for a closer look

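Salt effects differed between the phases, by edgeR's test of the difference between the salt effect in stationary and that in exponential phase (FDR under 0.05), in 6 pentose phosphate genes other than the described one, 3 of the 10 tested by name and 3 of the 5 from the annotation report, against 7.17% of all tested genes. The difference was -1.14 on the log2 scale for 6-phosphogluconolactonase (TRINITY_DN1746_c1_g1), the same sign as for TRINITY_DN769_c0_g1, and its call was lost without marine exponential replicate 1 or 2 (FDR up to 0.0547). It was 2.64 for the plastid 3-epimerase (TRINITY_DN5020_c0_g1) and 1.24 for TRINITY_DN2688_c0_g1 (transketolase beside a frame of another protein). Among genes with hits found in the annotation report it was 1.45 for TRINITY_DN1648_c1_g1, which has a ribose-5-phosphate isomerase hit. The product name of TRINITY_DN1648_c1_g1 is that of a platelet-activating factor acetylhydrolase subunit. The difference was 5.38 for TRINITY_DN1819_c1_g2 (transaldolase beside a light-harvesting protein) and 2.73 for TRINITY_DN1964_c0_g1 (3-epimerase beside a peptidyl-prolyl isomerase). With libraries whose codes begin alike summed, the call of TRINITY_DN1819_c1_g2 held (FDR 0.00784), and those of TRINITY_DN1746_c1_g1, TRINITY_DN5020_c0_g1, TRINITY_DN2688_c0_g1, TRINITY_DN1648_c1_g1 and TRINITY_DN1964_c0_g1 were lost (FDR 0.19, 0.134, 0.637, 0.879 and 0.119). Groups of 3 libraries were not searched for outlying libraries.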

How the results depend on the processing

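For TRINITY_DN769_c0_g1 the sign of 4 comparisons held under every alternative run, and that of the stationary salt comparison did not. Leaving out 1 library at a time, its log2 fold changes ran from 2.60 to 2.96 and from -0.32 to 0.14 for salt in exponential and stationary phase, from 0.55 to 1.10 and from -2.29 to -1.96 for phase in freshwater and marine medium, and from -3.28 to -2.57 for the difference between salt effects. With the assembly component summed, the exponential salt, freshwater phase, marine phase and difference values were 1.82, 0.30, -1.62 and -1.92. Scaled by total counts the salt values were 3.59 and 0.44. The authors' deposited table has -0.53 in stationary phase and -3.38 for the difference. Summing libraries whose codes begin alike turned the stationary salt value to 0.11. Mean levels in marine stationary, marine exponential, freshwater stationary and freshwater exponential cells were 545, 1775, 624 and 424 CPM for the component, and 639, 1697 and 530.2 and 294 CPM for both G6PDH genes. By total counts TRINITY_DN769_c0_g1 itself stood at 433, 1743 and 145 CPM in marine stationary, marine exponential and freshwater exponential cells.

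Of the 10 tested pentose phosphate genes, the calls (4 and 8 for salt in exponential and stationary phase, 3 and 0 for phase in freshwater and marine medium, 3 for the difference) ran from 2 to 5, 2 to 8, 3 to 4, 0 to 1 and 2 to 4 without 1 library. Summing libraries with like codes left 0 and 2 salt calls and 0 for the difference. With no filter on low counts there were 5 stationary salt calls. DESeq2 made 6 freshwater phase, 1 marine phase and 6 difference calls, and summed components 5 freshwater phase calls. With the 5 genes from the annotation report there were 7, 13, 7, 1 and 6. TRINITY_DN262_c0_g1 turned to -0.60 and -1.02 for salt with its component summed. The difference between salt effects of TRINITY_DN1377_c0_g1 turned to -0.01 without freshwater stationary replicate 1 and to -0.018 without marine stationary replicate 2, in a range from -0.018 to 0.59 without 1 library. The cause of these changes was not tested.

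The replicate numbers do not pair the libraries. With the replicate number as a block, the log2 fold changes of TRINITY_DN769_c0_g1 were 2.96, -0.13, 0.98, -2.11 and -3.09, and the stationary salt calls of the list were 5.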
